A study of Schizosaccharomyces pombe with 12 samples.

Results

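Fission yeast carries many protein-coding genes with no recognised relative outside its own genus. From the deposited annotation, 216 of 5156 coding genes were taken that have a product described as a protein specific to Schizosaccharomyces. These 216 genes, called the members from here on, were chosen by that wording and by identifier. No measured value entered the rule, though it was set with earlier results of these data known. The wording stood in 224 coding rows in all. The rule left out 8 of them by a list of identifier prefixes and single identifiers, and 2 noncoding rows with the wording were not counted. Of the members, 75 are described as specific to S. pombe, and 141 as specific to the genus Schizosaccharomyces without naming 1 species. In the whole series, the tables listed 6988 features.

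The cells were wild-type S. pombe of strain AGP72, of mating type h-. They grew in log phase in YES, a rich medium of yeast extract with supplements, for the 0 h group, and the 3 later groups (2, 4 and 8 h) had been moved to ePMGT(+PO4), a defined medium with glutamate, thiamine and phosphate. Each group had 3 biological replicates, and poly(A)+ RNA was sequenced. The question was which transcripts change when cells leave a complex medium for a defined one that still holds phosphate. No culture kept in YES was sampled at 2, 4 or 8 h, so the new medium, the transfer and the passing of time cannot be told apart.

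Genes of this kind are often called orphan or taxonomically restricted genes. They arise when a gene diverges until its relatives can no longer be recognised, or when a previously noncoding stretch gains a reading frame, and many encode short proteins with no known domain. In fission yeast the function of most of them is not known, and a good part of those with a name owe it to screens for transcripts that are raised in meiosis, the Mug (meiotically upregulated gene) and Meu (meiotic expression upregulated) series.

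Levels are given in normalized reads, that is reads divided by the size factor of the library, which evens out depth. They are not divided by transcript length, so a difference in reads between genes can also reflect length. The tables gave 1 average per group, and the whole reads of each library were worked back from the digits of these averages for 99.3% of all features in every group and for all 216 members. The 12 libraries, named A, B and C within each group, held 11987408 to 18515868 reads in the features so solved. One of them, 2 h library A, stood apart, with a residual SD of 0.177 on the log2 scale against 0.118 to 0.145 in the other 11, so counts that rest on the 2 h group are also given without it. A gene rose or fell where limma, fitted over all 6053 features with a mean average of 10 or more, gave an adjusted p of 0.05 or less. The mating-type markers were mixed. Of the 5 M-cell genes, mfm2, mam1 and mam2 had averages of 104 to 1876 over the groups, while mfm1 (18.6 to 53.9) and mfm3 (11.9 to 21.3) were low. The 2 P-cell genes, map2 and map3, had averages of at least 128 in this h- strain. Of the 5 M-cell genes, 4 rose at 8 h (all but mfm3), while neither P-cell gene passed the test at any time. Their part in the results below was not tested.

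Most members were read in these cells. Only 2 of the 216, new9 and SPAC959.11, had no read in any of the 12 libraries, and 20 more had a mean average under 10. The remaining 194 were tested. The others fell in 3 bands, with 35 at a mean average of 10 to 100, 112 at 100 to 1000 and 47 at 1000 or more. The median of the mean averages was 344 for the members and 1456 for the 4940 other coding genes, of which 3.2% lay between 10 and 100, against 16.2% of the members. Low reads were more frequent among those specific to S. pombe, where 16 of 75 had some reads but a mean average under 10, than among the 141 others, where 4 did. Their medians were 133 and 521. The part of transcript length in these differences in reads was not tested. The members' log2 changes carried a wider error, with a median SE of 0.079 at 8 h against 0.056 for the other coding genes with averages of 100 or more. This also held within a band of level, with 0.09 against 0.072 at 100 to 1000 and 0.06 against 0.05 at 1000 or more.

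The members took a small part of the reads, which grew with time. They held 1.01% ± 0.005 (SD, n = 3) of the normalized reads of coding genes at 0 h, then 1.05% ± 0.017, 1.05% ± 0.012 and 1.152% ± 0.002 at 2, 4 and 8 h. The 3 libraries of 8 h lay between 1.150% and 1.154%, above all 9 others, which reached 1.066% at most. Without SPCC1235.01, the member with the most reads, the shares were 0.910% at 0 h, 0.936% at 2 h, 0.910% at 4 h and 0.978% at 8 h.

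By limma, 29 members rose and 21 fell at 2 h, where 14.9% and 12.8% of the 4926 coding genes tested did. At 4 h, 44 rose and 30 fell, against 19.3% and 16.3% of the coding genes. At 8 h, 58 rose, against 26.3%, and 23 fell, against 22.1%. As shares of the 194 members tested, 14.9%, 22.7% and 29.9% rose and 10.8%, 15.5% and 11.9% fell at the 3 times. The shares that rose were thus near those of all coding genes, and the share that fell at 8 h was lower. With 2 h library A left out, 23 rose and 18 fell at 2 h, and 21 and 14 of these had also passed with all libraries. The shares of all coding genes without that library are not given here.

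Within bands of level, the share of falls at 8 h differed most among deeply read genes. With a mean average of 1000 or more, 7 of 47 members fell (14.9%), against 27.0% of the other coding genes in that band. Between 100 and 1000 the shares were 12.5% and 14.2%, and between 10 and 100 they were 5.7% and 8.1%. Shares that rose at 8 h were 37.1% of members and 26.9% of other coding genes in the lowest band, 25% and 26.2% in the middle one, and 36.2% and 26.0% in the highest. No test of these differences between members and other genes was made.

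**Figure D1:**
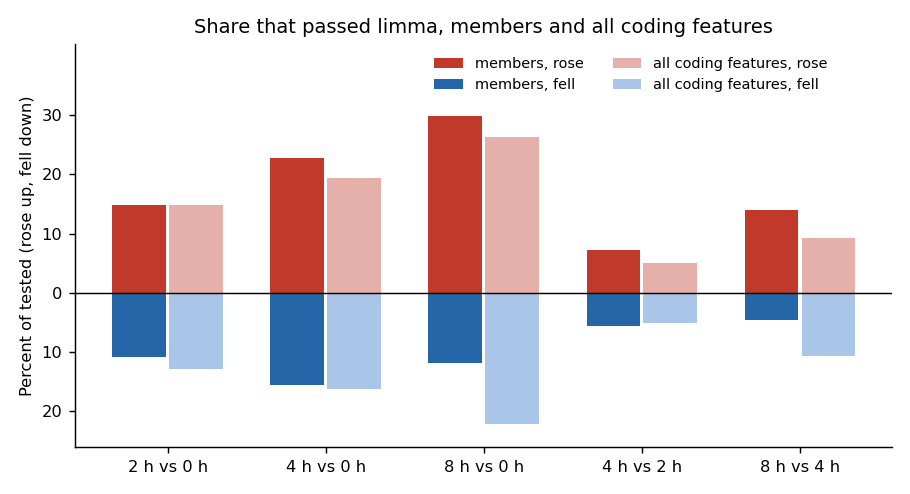
Percent of tested genes that rose (bars upward from 0) or fell (bars downward from 0) by limma in 5 contrasts, for the 194 members (dark) and all 4926 coding genes tested (pale). The bars for rises are of like height at 2 h (14.9% for both), and the largest gap is in the falls at 8 h, 11.9% against 22.1%.

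Steps between the later times were also compared. From 2 to 4 h, 14 members rose (7.22%) and 11 fell (5.67%), where 5.1% and 5.03% of coding genes did, so falls were not fewer in this step. Without 2 h library A these counts of members were 22 and 21. The shares of all coding genes without it are not given here, so this change cannot be set against theirs. From 4 to 8 h, 27 members rose (13.9%), against 9.2% of coding genes, and 9 fell (4.64%), against 10.6%. The largest rises in this last step were those of SPAPJ695.02, mug147, mug42 and tam13, and the largest fall was that of SPBC1271.08c.

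Over the whole course, 84 of the 194 tested members passed at no time (43.3%, against 38.6% of coding genes). There were 71 that rose at 1 or more times (36.6%, against 33.0% of coding genes) and 44 that fell (22.7%, against 29.5%), of which 5 did both (2.6%, against 1.1%). Rises were kept at all 3 times by 20 members (10.3%, against 9.4%) and were limited to 8 h in 19 (9.8%, against 9.3%), both near the share of all coding genes. There were 7 that fell at all 3 times (3.6%, against 6.1%) and 5 at 8 h alone (2.6%, against 7.6%). A rise that passed at 2 h and not at 8 h was seen in 8 (4.1%, against 4.3%), and such a fall in 12 (6.2%, against 4.6%). Averages stood in the order 0, 2, 4, 8 h from lowest to highest in 26 members (13.4%, against 12.7% of coding genes) and in the reverse order in 11 (5.7%, against 11% of them).

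Changes were small for most members. Among those with an average of 100 or more in either group, the median log2 ratio to 0 h was 0.01 at 2 h (162 members), 0.02 at 4 h (163 members) and 0.06 at 8 h (164 members), and the middle 50% at 8 h ran from -0.10 to 0.24. For all coding genes the medians were -0.005, -0.0004 and 0.03, and for the coding genes whose product says conserved fungal protein or conserved protein, a class of 53, they were 0.02, 0.07 and 0.11. By the medians of the single libraries, the members stood at 0.056 ± 0.005 (SD, n = 3) at 8 h.

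A 2-fold difference between the averages, with 100 or more in the higher group, was reached by 7 members in all. Each of these also passed limma at the same time. They were 3 at 2 h (1.52% of coding genes were 2-fold or more higher), 2 at 4 h (1.52%) and 7 at 8 h (2.35%), or 1.85%, 1.23% and 4.27% of the members with such averages. No member was 2-fold or more lower at any time, where 0.0416%, 0.125% and 0.312% of coding genes were. Of the 7, SPAPJ695.02, SPBC25B2.08, SPAC664.13 and SPCC338.18 are specific to S. pombe, and mug147, tam13 and SPCC584.16c to the genus. Their products have no assigned function.

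**Figure D2:**
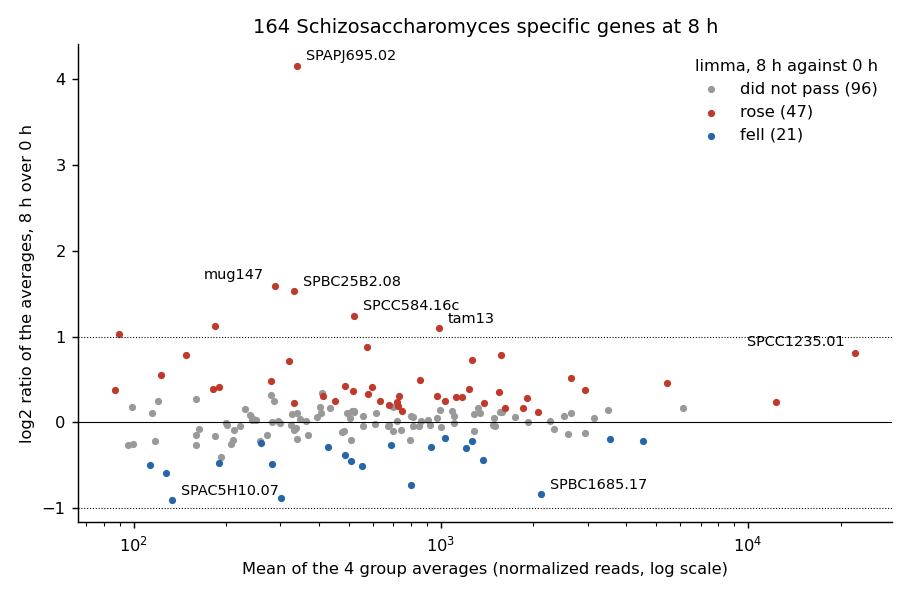
Log2 ratio of the 8 h average to the 0 h average (vertical axis) against the mean of the 4 group averages (horizontal log axis) for the 164 members with an average of 100 or more at 0 or 8 h. Red points rose (47), blue points fell (21) and grey points did not pass limma (96), and dotted lines mark 2-fold; 7 points lie above the upper line and none below the lower one.

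SPAPJ695.02 changed most. It had 41.3, 42 and 52.3 normalized reads in the 3 libraries of 0 h, 247, 263 and 217 at 2 h, 274, 244 and 275 at 4 h and lastly 788, 802 and 834 at 8 h. All 3 groups lay wholly above 0 h, and the 8 h libraries wholly above the 4 h ones. Its average was 5.37 times the 0 h average at 2 h, 5.85 times at 4 h and 17.9 times at 8 h, which ranked it 8 among the coding genes with such averages at 8 h. The log2 change at 8 h was 4.14 ± 0.10 (SE, limma adjusted p = 1.1e-09). From 2 to 4 h it did not pass (0.12 ± 0.10, limma adjusted p = 0.45), and from 4 to 8 h it rose by 1.61 ± 0.10. By gene order it lies between SPAC977.17, an aquaporin, whose average at 8 h was 1.19 times that at 0 h (limma adjusted p = 0.12), and SPAPJ695.01c. The latter had an average of 1.97 reads at 0 h and was too low to be tested. Its ratios of 4.85, 2.63 and 6.65 at 2, 4 and 8 h thus rest on few reads. The neighbour SPAC977.17 bears an identifier prefix that the rule for members leaves out.

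mug147 and tam13 lie side by side and both rose. mug147 had 179, 143 and 138 normalized reads at 0 h, 410, 251 and 258 at 2 h, 257, 214 and 229 at 4 h and lastly 459, 424 and 499 at 8 h. The libraries of all later groups lay above those of 0 h, but 2 h library A was far above the other two of its group. Its ratio was 2.0008 at 2 h, which is on the 2-fold line, and fell to 1.66 without 2 h library A. The ratio was 1.52 at 4 h and 3.01 at 8 h, where the log2 change was 1.59 ± 0.18 (limma adjusted p = 5.7e-05). The rise at 4 h (0.61 ± 0.18, limma adjusted p = 0.023) did not pass once either 0 h library B or C, or 4 h library A or C, was left out.

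tam13 had 763, 643 and 680 normalized reads at 0 h, 900, 887 and 798 at 2 h, 861, 754 and 1029 at 4 h and lastly 1623, 1445 and 1398 at 8 h. Only the 4 h libraries overlapped those of 0 h. Its ratio was 2.14 at 8 h, with a log2 change of 1.10 ± 0.11 (limma adjusted p = 3.1e-05), and most of the rise came after 4 h (0.76 ± 0.11, limma adjusted p = 0.0023). At 4 h it was 0.33 ± 0.11 with a limma adjusted p of 0.042, which lay between 0.051 and 0.14 when any 1 of 7 libraries was left out, and was 0.056 scaled to coding reads and 0.089 on these 2 groups alone. The members formed 9 such side-by-side pairs by gene order, and this was the only 1 in which both rose at 8 h, and in none did both fall. Of single genes, 29.9% of tested members and 26.3% of tested coding genes rose at 8 h, and 11.9% and 22.1% fell. The share of such pairs over all coding genes was not counted, so no effect of lying side by side is read from this. The next gene beyond mug147, SPBC56F2.05c, which encodes a DNA-binding transcription factor, fell at 2 h (-0.44 ± 0.08) and stood at -0.05 ± 0.08 at 8 h, and the one beyond tam13, SPBC56F2.07c, an ATPase of ribosome biogenesis, had 0.952 times its 0 h average. An antisense RNA listed across mug147 did not pass at any time.

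SPBC25B2.08 rose in steps. Its libraries had 171, 190 and 187 normalized reads at 0 h, 256, 280 and 260 at 2 h, 387, 347 and 320 at 4 h and lastly 477, 574 and 529 at 8 h. No 2 groups overlapped. Its log2 change against 0 h was 0.54 ± 0.08, 0.94 ± 0.08 and 1.52 ± 0.08 at the 3 times, and it also rose from 2 to 4 h and from 4 to 8 h. It overlaps mrs1, the gene of an arginine-tRNA ligase, on the other strand. mrs1 moved the other way, to 0.747 times its 0 h average of 9136 at 8 h (log2 change -0.42 ± 0.03). The gene on the other side, mmb1, which encodes a mitochondrial microtubule binder, rose to 1.32 times at 8 h (0.40 ± 0.08). The sources used here do not say whether the authors counted by strand, so reads of such overlapping pairs may not be fully told apart.

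SPCC584.16c reached its full rise by 2 h. It had 250, 231 and 244 normalized reads at 0 h, 750, 605 and 561 at 2 h, 642, 585 and 666 at 4 h and lastly 609, 574 and 533 at 8 h. All later libraries lay above 0 h and the later groups overlapped one another. The ratios were 2.64, 2.61 and 2.37, and neither later step passed (limma adjusted p = 0.97 and 0.34). Without 2 h library A the ratio at 2 h was 2.41. Only this gene and SPAPJ695.02 were past 2-fold at all 3 times. It lies between aly3, an arrestin-related adaptor of ubiquitin ligases, which did not pass at any time, and met10, a subunit of sulfite reductase, which fell (0.686 times at 8 h, log2 change -0.55 ± 0.09).

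SPAC664.13 and SPCC338.18 were just past the line at 8 h. SPAC664.13 had 112, 114 and 121 normalized reads at 0 h, 165, 200 and 161 at 2 h, 172, 173 and 225 at 4 h and lastly 229, 286 and 242 at 8 h. The later groups lay above 0 h, and the log2 change at 8 h was 1.11 ± 0.12 (limma adjusted p = 5.6e-05). Beside it lies amt2, an ammonium transporter, which at 8 h was at 0.705 times its 0 h average. On the other side sdh6, the gene of a succinate dehydrogenase assembly factor, rose to 1.24 times (limma adjusted p = 0.0046). SPCC338.18, which lies next to the cohesin gene rad21, had 70.6, 49.8 and 59.3 reads at 0 h, 43.9, 61.2 and 84.3 at 2 h, 126, 121 and 92.2 at 4 h and lastly 129, 122 and 115 at 8 h. At 2 h it overlapped 0 h and at 4 and 8 h it did not. Its ratio at 8 h was 2.03, and 1.88 without 0 h library B or 1.98 without 8 h library A, so its place past 2-fold rests on single libraries, while its log2 change of 1.02 ± 0.21 passed limma (adjusted p = 0.0030).

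**Figure D3:**
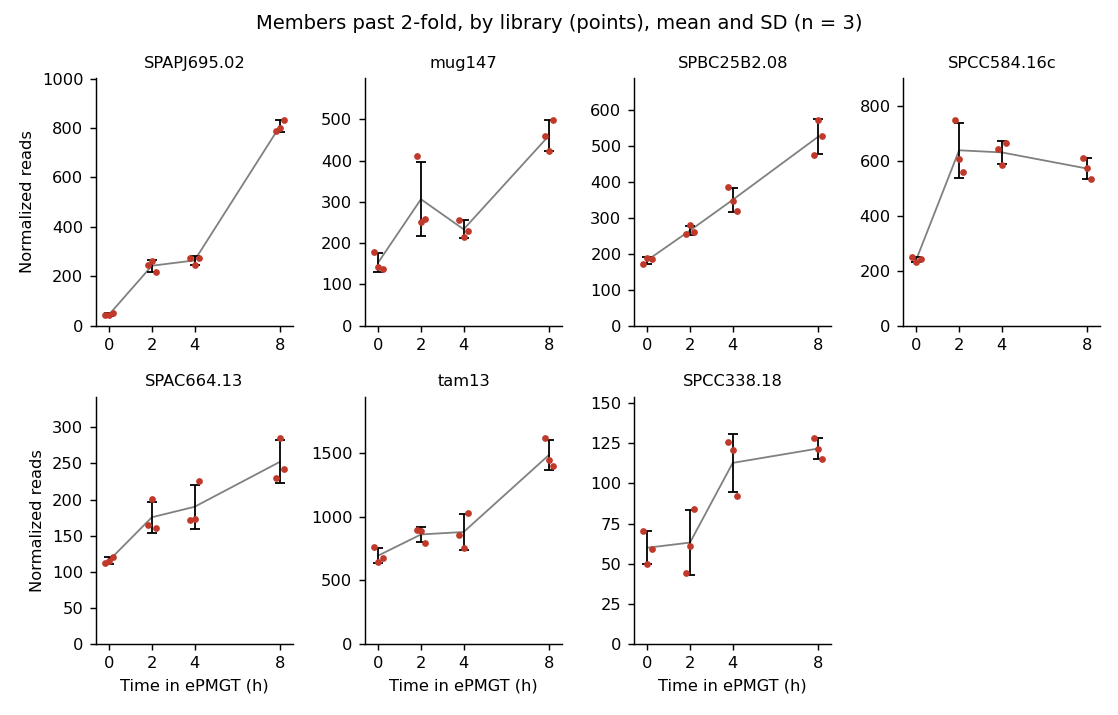
Normalized reads (vertical axes from 0) at 0, 2, 4 and 8 h in the 7 members past 2-fold at any time. Red points are the 3 libraries of a group, the line joins the means and bars are the SD; SPAPJ695.02 goes from 41.3 to 52.3 at 0 h to 788 to 834 at 8 h, and SPCC584.16c is at its highest mean at 2 h.

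The 3 members inside the 2-fold line nearest to it at 8 h were thus SPAC664.13 (ratio 2.18), tam13 (2.14) and SPCC338.18 (2.03). The nearest below it were SPCC191.01 (1.83), SPCC1235.01 (1.75) and SPAPB1A10.13 (1.73). SPCC191.01 had 444, 385 and 420 normalized reads at 0 h and 829, 718 and 745 at 8 h, did not overlap, and rose in each step. It lies between acs1, an acetyl-CoA ligase gene, whose ratio was 1.05, and SPCC417.16, whose ratio was 0.837. SPAPB1A10.13 had 1216, 1232 and 1265 at 0 h and 2098, 2115 and 2192 at 8 h. It did not pass at 2 h (-0.03 ± 0.09) and rose at 4 h (0.45 ± 0.09) and at 8 h (0.79 ± 0.09). An antisense RNA listed across it was 2.74 times its own 0 h average of 43.4 at 8 h. The F-box protein gene pof15, which overlaps SPAPB1A10.13 on the same strand, rose to 1.36 times at 8 h (limma adjusted p = 0.035).

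Falls were smaller than rises. SPAC5H10.07 fell furthest, from 164, 179 and 162 normalized reads at 0 h to 105, 112 and 95.5 at 4 h and 92.8, 98.4 and 76.8 at 8 h, after 141, 196 and 170 at 2 h. The 2 h libraries overlapped 0 h, and those of 4 and 8 h lay wholly below. Its ratio was 0.531 at 8 h and its log2 change -0.91 ± 0.12 (limma adjusted p = 2.0e-04). Its neighbour adh4, an alcohol dehydrogenase gene, rose to 4.76 times its 0 h average of 4627 at 8 h (2.25 ± 0.07), and the gene on the other side, pan6, a pantoate-beta-alanine ligase, was at 0.902 times.

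SPBC83.12 kept its level at 2 h and fell from there. It had 339, 380 and 349 normalized reads at 0 h, 329, 396 and 406 at 2 h, 264, 272 and 304 at 4 h and lastly 181, 214 and 185 at 8 h. Each step after 2 h passed limma, by -0.42 ± 0.10 from 2 to 4 h and by -0.53 ± 0.10 from 4 to 8 h. Against 0 h the fall at 4 h (limma adjusted p = 0.020) did not pass when 0 h library B, 4 h library A or 4 h library B was left out (0.059 to 0.068), while the ratio at 8 h was 0.543. The antisense RNA listed across it had ratios of 1.11, 1.06 and 1.08.

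SPBC1685.17 had 2449, 2601 and 2659 normalized reads at 0 h and 2299, 2203 and 2234 at 2 h. It then had 2205, 2077 and 2314 at 4 h and 1440, 1528 and 1334 at 8 h. All later libraries lay below 0 h, and most of the fall came after 4 h (-0.62 ± 0.06, limma adjusted p = 2.7e-04). SPAC144.01 had 918, 1022 and 990 at 0 h and 621, 593 and 556 at 8 h, a ratio of 0.604, with no overlap at 4 or 8 h. These 4 members were those with the largest falls at 8 h, and the first 3 are specific to S. pombe.

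Dips and peaks at 2 h were seen in members with many reads. SPAPB24D3.07c had 3076, 2780 and 3158 normalized reads at 0 h, 1794, 1687 and 1654 at 2 h, 3223, 3053 and 3326 at 4 h and lastly 4122, 3959 and 3614 at 8 h. At 2 h it was wholly below and at 8 h wholly above 0 h. Its ratio of 0.570 at 2 h was the eighth lowest of the coding genes with such averages, with a log2 change of -0.81 ± 0.07 (limma adjusted p = 1.2e-05), and the return from 2 to 4 h was 0.90 ± 0.07. It did not pass at 4 h and was higher at 8 h (0.38 ± 0.07, limma adjusted p = 9.9e-04). slt1 and mug35, named here after their values were seen, also fell at 2 h alone, by 0.58 ± 0.09 and 0.40 ± 0.09 on the log2 scale, with ratios of 0.672 and 0.759.

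SPBC1271.08c took the opposite course. It had 1254, 1316 and 1213 normalized reads at 0 h, 1808, 1853 and 1803 at 2 h, 1567, 1398 and 1437 at 4 h and lastly 915, 962 and 920 at 8 h. Every later group was clear of 0 h, above it at 2 and 4 h and below it at 8 h. The log2 changes were 0.53 ± 0.05, 0.22 ± 0.05 and -0.43 ± 0.05 (limma adjusted p = 3.5e-05, 0.0074 and 6.3e-05). The antisense RNA listed across it went from 0.37 ± 0.08 at 2 h to -0.25 ± 0.08 at 4 h and -0.71 ± 0.08 at 8 h. On one side SPBC1271.07c, an N-acetyltransferase gene, went from 0.52 ± 0.07 to -0.28 ± 0.07 and -0.93 ± 0.07. On the other side tgp1, the gene of a glycerophosphodiester transporter, rose at all 3 times and reached 1.87 times its 0 h average at 8 h.

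**Figure D4:**
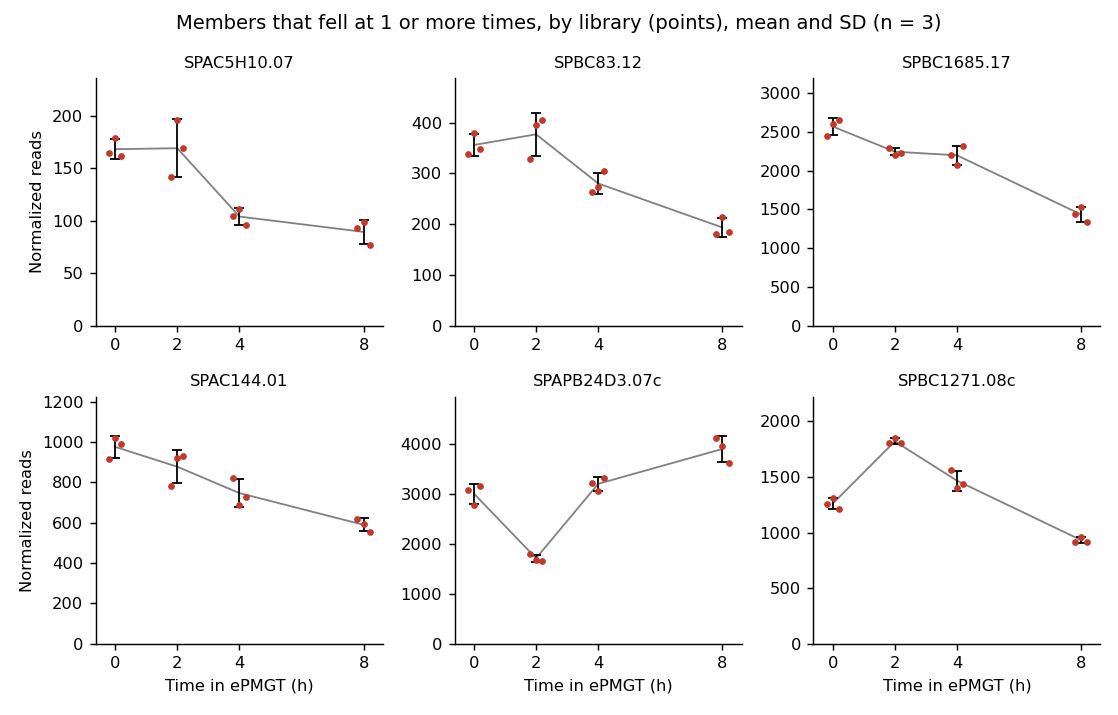
Normalized reads (vertical axes from 0) at 0, 2, 4 and 8 h in 6 members that fell at 1 or more times. Red points are the 3 libraries of a group, the line joins the means and bars are the SD; SPAPB24D3.07c is lowest at 2 h, with 1654 to 1794 reads, and SPBC1271.08c highest there, with 1803 to 1853.

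The member with the most reads, SPCC1235.01, rose while already high. It had 17472, 16406 and 16220 normalized reads at 0 h, 20767, 17176 and 18198 at 2 h, 24554, 24683 and 25334 at 4 h and lastly 29915, 27621 and 30007 at 8 h. The 2 h libraries overlapped 0 h and the later ones did not. Its log2 change was 0.16 ± 0.07 at 2 h (limma adjusted p = 0.10, but 0.037 scaled to coding reads, 0.041 with voom and 0.038 without 2 h library B), 0.57 ± 0.07 at 4 h and 0.80 ± 0.07 at 8 h (limma adjusted p = 7.7e-06). The adjacent bio2, a biotin synthase gene, fell to 0.714 times its 0 h average at 8 h. On the other side SPCC320.03, which encodes a DNA-binding transcription factor, rose at 4 h (0.43 ± 0.06) and 8 h (0.32 ± 0.06). An intergenic RNA annotated as a possible alternative UTR overlaps SPCC1235.01 on the same strand and had an average of 235 reads at 0 h. This RNA rose at 8 h (0.94 ± 0.33, limma adjusted p = 0.040) and did not pass at 2 or 4 h.

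The other 4 members with the highest averages moved less. SPAC922.04 had 11662, 11785 and 11960 normalized reads at 0 h and 14464, 13748 and 13471 at 8 h, a rise of 0.23 ± 0.04. SPCC306.11 had 4654, 4423 and 4767 at 0 h and 6202, 6432 and 6329 at 8 h, a rise of 0.45 ± 0.07. It overlaps alp16, a gamma tubulin complex gene, on the other strand, which had a ratio of 1.08. SPBC17D1.05 fell slightly, from 5067, 4749 and 5070 to 4045, 4400 and 4345, by 0.22 ± 0.05. adg1 had 5600, 5720 and 5818 reads at 0 h against 6226, 6666 and 6395 at 8 h, and its log2 change of 0.17 ± 0.07 did not pass (limma adjusted p = 0.080). It did pass under 6 of the alternatives, with limma adjusted p of 0.033 scaled to coding reads, 0.022 with voom, 0.021 with a trend, 0.016 on these 2 groups alone, and 0.036 and 0.0064 without 2 h library A and B.

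**Figure D5:**
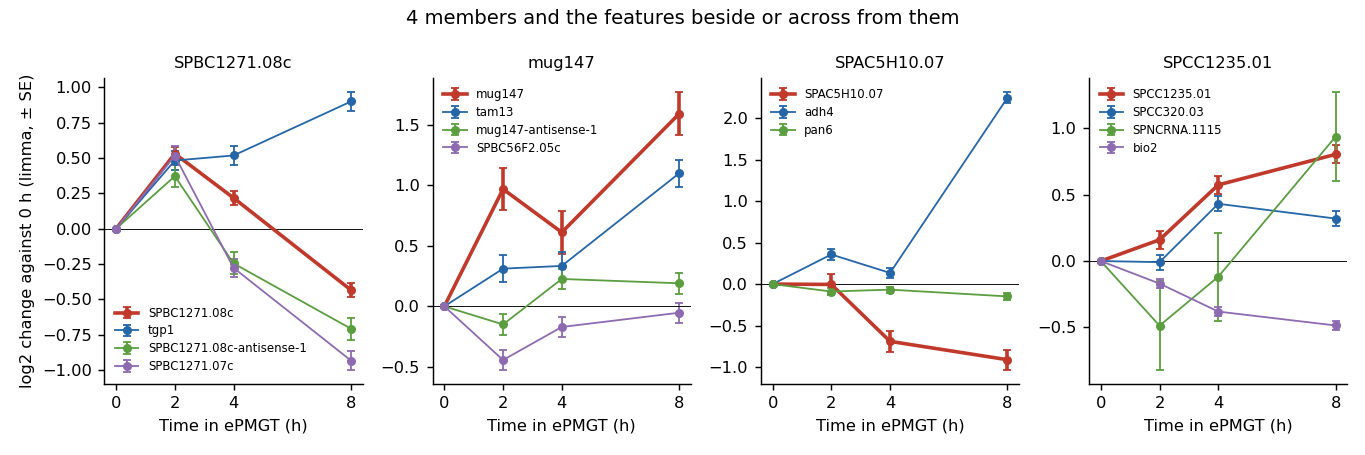
Log2 change against 0 h by limma with its SE (vertical axes, which differ between panels) at 2, 4 and 8 h for 4 members (thick red lines) and the features that lie beside them or overlap them. SPBC1271.08c, its antisense RNA and SPBC1271.07c go up at 2 h and below 0 h by 8 h, mug147 and tam13 both end above 1, and SPAC5H10.07 ends at -0.91 while adh4 ends at 2.25.

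The members were also divided by the breadth of their label. Of the 59 tested members specific to S. pombe, 13, 19 and 20 rose and 7, 9 and 10 fell at 2, 4 and 8 h. Of the 135 others, 16, 25 and 38 rose and 14, 21 and 13 fell. The shares that rose were 22.0% and 11.9% (2 h), 32.2% and 18.5% (4 h), and 33.9% and 28.1% (8 h). The shares that fell were 11.9% and 10.4% (2 h), 15.3% and 15.6% (4 h), and 16.9% and 9.6% (8 h), so the falls at 4 h were of like share. Of all tested coding genes, 14.9%, 19.3% and 26.3% rose and 12.8%, 16.3% and 22.1% fell at these times. Rises at 8 h alone were seen in 5.1% of the members specific to S. pombe, 11.9% of the other members and 9.3% of coding genes. At 8 h the middle 50% of log2 ratios ran from -0.25 to 0.37 in the members specific to S. pombe and from -0.09 to 0.20 in the others, with medians of 0.03 and 0.07. The difference between the 2 classes was not tested.

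There were 52 members with names of the Mug, Meu, Mde, Tam or New series, 47 of them tested. In these, 6, 10 and 15 rose and 4, 6 and 4 fell at 2, 4 and 8 h, against 23, 34 and 43 that rose and 17, 24 and 19 that fell among the 147 other tested members. At 8 h that is 31.9% and 29.3% that rose, against 26.3% of all tested coding genes. The shares that fell were 8.5% and 12.9%, against 22.1%. At 2 and 4 h, 12.8% and 21.3% of the series rose, against 14.9% and 19.3% of coding genes. Falls in the series were then 8.5% and 12.8%, against 12.8% and 16.3%. None of these differences was tested. The median log2 ratio of the series at 8 h was 0.02, against 0.07 for the other members. The 34 tested Mug genes held 11 rises and 2 falls at 8 h (32.4% and 5.9%), and the falls were mug150 (-0.51 ± 0.14) and mug45 (-0.47 ± 0.11). Among the 5 Tam genes, tam13 and tam8 rose at 8 h, tam8 by 0.20 ± 0.07. Of 6 tested Meu genes, meu31 and meu32 rose at 8 h and meu18 fell. New11 fell at all 3 times, to 262, 239 and 258 normalized reads at 8 h from 374, 342 and 350 at 0 h (-0.49 ± 0.06). Beyond mug147, these genes are named after their values were seen.

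Some rises in this series came from genes with few reads. mug42 had 14.3, 15.6 and 12.8 normalized reads at 0 h and 31.7, 38.4 and 30.9 at 8 h (log2 change 1.19 ± 0.24, limma adjusted p = 0.0027). mug15 had 56.3, 61.5 and 54.6 at 0 h, 98.2, 88.5 and 98.2 at 2 h, and stayed at 78.4 to 112 at 8 h. meu31 had 61.9, 61.5 and 32.5 at 0 h and 97.5, 106 and 91.7 at 8 h. Each of these had 8 h libraries wholly above 0 h, yet none reached an average of 100 with a 2-fold ratio. SPAC30D11.02c, which bears no such name, had 8.7, 14.7 and 19.8 at 0 h and 47.6, 47.2 and 51.2 at 8 h (log2 change 1.76 ± 0.31).

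Genes that drive or mark meiosis did not move as a body. The list held 14 genes (ste11, mei2, mei3, mei4, rec8, rec10, rec12, dmc1, spo4, spo5, spo6, isp3, meu14 and crs1). Of these, 12 were tested, and 2, 4 and 2 rose and 2, 1 and 3 fell at 2, 4 and 8 h. Among all tested coding genes, 14.9%, 19.3% and 26.3% rose and 12.8%, 16.3% and 22.1% fell at these times. With only 12 genes, no difference from these shares is read from the counts, and none was tested. mei2, which encodes an RNA-binding protein needed to enter meiosis, rose to 1.59 times its 0 h average at 8 h, and meu14, a gene of the forespore membrane, from an average of 61.3 to 128. The mei4 average, of a forkhead transcription factor of mid meiosis, was 167 at 0 h and 133 at 8 h, a fall that passed. spo6 fell from 168 to 73.5.

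Among the 3 members whose product mentions a GPI anchor or a cell surface glycoprotein, only SPAPB18E9.04c, the possible glycoprotein, passed. It had 1332, 1301 and 1396 normalized reads at 0 h, 1876, 1787 and 2103 at 2 h, 1546, 1603 and 1618 at 4 h and lastly 1512, 1419 and 1440 at 8 h. It rose at 2 h (0.51 ± 0.06) and 4 h (0.24 ± 0.06), and at 8 h it stood at 0.12 ± 0.06 (limma adjusted p = 0.12). The GPI-anchor members SPBP19A11.02c and SPCC24B10.06 had ratios of 1.03 and 0.944 at 8 h, and neither passed at any time.

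By the RefSeq gene table, in which 215 of the 216 members were found, 122 members overlap another feature of the deposited tables, 31 of them on the same strand. Among all 216 members, 4 share sequence with a gene elsewhere: SPBC18H10.18c and SPCC1682.06 with each other, and SPCC1884.01 and SPCC569.04 with each other. SPCC1884.01 shares it with SPCC569.05c too, which overlaps SPCC569.04 on the other strand. Their own reads are therefore uncertain. SPCC1884.01 fell at all 3 times, to 0.662 times its 0 h average at 8 h. SPBC18H10.18c and SPCC1682.06 had ratios of 0.954 and 1.08.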

How the data were processed

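Poly(A)+ RNA of 12 libraries was sequenced with a stranded kit. By the labels and the methods section, the authors aligned reads to ASM294v2 with HISAT2 2.1.0, then used SAMtools, HTSeq 0.10.0 for counts over exons, and DESeq2. The strand setting of HTSeq is not stated there. The deposited tables contain group averages of counts divided by size factors, a signal, which were used here. They also hold the authors' overall mean, log2 fold changes with standard errors, a test score, p-values and adjusted p-values, which were not used.

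Each average is the sum of 3 whole read numbers, each times a step of its own, to 15 digits. The reads were solved from this with Python 3.11.15, and 1 solution was found for each feature below an average of 35000 with few exceptions (99.28% to 99.37% of 6988 features in a group, none with more than 1). The libraries so recovered carry no replicate number. The solved features held 11987408 to 18515868 reads a library. These sums leave out the features above an average of 35000, so they are less than the full depth. Precision falls with the reads of a gene.

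log2(normalized reads + 1) of the 12 libraries was fitted with limma 3.58.1 in R 4.3.3, 4 group means in 1 fit, 2-sided. Benjamini-Hochberg adjustment was over the 6053 features with a mean average of 10 or more and reads solved in every group. Of the 3218 coding genes other than members with a mean average of 1000 or more, 3153 were tested. p-values measure the spread between these cultures. The recovery and the fit were tested on simulated data, the recovery only at levels below those of SPCC1235.01 and SPAC922.04. At most 0.18 accidental solutions were expected for a member in a group. Named members were all those past 2-fold (100 or more normalized reads in the higher group), the 5 with the largest falls, the 5 with the highest 0 h averages, the 3 with the largest ratios of 2 to 8 h and of 8 to 2 h, and the 3 on each side of 2-fold at 8 h, 20 in all. Others are said to be named after their values were seen or stand for a class. Members, lists and tests were chosen with earlier results of these data known. Alternatives changed the fold, the lowest average, the scaling, the pseudocount, the filter, the members, the model and the libraries. No coordinate or sequence is printed here, since the genome at hand is of another build than the files. RefSeq positions and strands served for gene order and overlaps. Sequences of its genes were compared by blastn at 90% identity or more to find members that share sequence with another gene.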

Additional observations from a re-analysis of the deposited data

How the results depend on the processing

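No paired analysis was possible because the recovered libraries carry no replicate number. With 1.5-fold in place of 2-fold, 5, 8 and 13 members were higher and 1, 2 and 5 lower at 2, 4 and 8 h, and with 3-fold 1, 1 and 2 were higher. With no lowest average, 7, 9 and 14 were higher and 5, 6 and 7 lower, and with an average of 500 or more 1, 1 and 4 were higher. The members specific to S. pombe gave 1, 1 and 4 of the higher ones. The others gave 1 at 4 h and 3 at 8 h. With none of the 8 rows left out, 1 gene was lower at 8 h. The other alternatives in minimum, scaling and pseudocount kept these counts within 1.5 times. Averages without 1 library in turn gave 2 to 3 members 2-fold or more higher at 2 h, 2 to 5 at 4 h and 6 to 7 at 8 h, and 0 lower. The 5 came without 4 h library C, and the 2 at 2 h without 2 h library A or 0 h library B or C, where mug147 was below the line. Chosen after seeing the data were these averages and the medians without 1 library, the trend and the set with no overlap, while the other alternatives were planned.

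The median log2 ratio at 4 h was 0.0518 with an average of 500 or more and -0.0383 with the sum over coding genes made equal, a change of sign in a value near 0. At 8 h it was 0.0775 with no lowest average, 0.0755 at 50 or more, 0.1031 at 500 or more, 0.0521 with equal sums and 0.0273 with the median ratio of coding genes set to 1. Leaving out 1 library gave medians of 0.0047 to 0.0251 (2 h), of 0.0048 to 0.0324 (4 h) and of 0.0536 to 0.0737 (8 h).

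By limma on the 2 groups compared alone, 17 members rose and 10 fell at 2 h, and 5 rose and 4 fell from 2 to 4 h. These and the next counts are of members, and the shares of all coding genes under the alternatives are not given. Scaled to coding reads, 5 fell from 4 to 8 h. With a trend, 17 fell from 2 to 4 h. Among members with no overlap and no shared sequence, which are fewer, 12, 19 and 25 rose and 7, 12 and 6 fell at 2, 4 and 8 h. In that set 4 rose and 4 fell from 2 to 4 h, and 12 rose and 2 fell from 4 to 8 h. Leaving out each of the 12 libraries gave 21 to 29 rises at 2 h, 30 to 47 at 4 h and 45 to 64 at 8 h, with 12 to 21, 20 to 36 and 20 to 27 falls. The ranges were 10 to 22 and 5 to 21 from 2 to 4 h, and 16 to 32 and 4 to 14 from 4 to 8 h. The lowest count of falls at 2 h came without 0 h library C. From 4 to 8 h the 14 falls came without 2 h library A, and the 16 rises and 4 falls without 8 h library C. The cause of these changes was not tested. Of 1200 values of the 20 named members under the alternatives, 1147 kept their direction and their side of the threshold, 27 no longer passed, 26 passed only there, and 0 reversed.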
